A study of Mus musculus with 2 samples.

Results

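The genes of fatty acid handling compared here are 10 of the 23284 gene symbols measured in both libraries: Fabp4, Fabp5, Cd36, Lpl, Pparg, Ppard, Ppara, Scd1, Scd2 and Fasn. They were chosen from the FPKM of these same libraries, in which Fabp4 had a very high ratio of ESAM-null to WT, together with genes of its pathway. The ratios of these genes are therefore a description and were not tested. Both libraries were made from LSK CD48- cells of the fetal liver (FL) at E14.5, 1 from WT fetuses and 1 from ESAM-null fetuses. LSK cells are negative for lineage markers and positive for Sca-1 and c-Kit, and the CD48- fraction of them is enriched for hematopoietic stem cells (HSCs). ESAM is an adhesion molecule shared by HSCs and endothelial cells, and ESAM-null fetuses came from a conventional knockout line that lacks it in every tissue, so the cells around the sorted ones lacked it too. The number of fetuses and of cells behind each library, and the sex and strain of the fetuses, are not given in the labels or text read here. The labels speak of the sorted cells being put into methylcellulose colony medium and incubated, whereas the study's text describes the RNA as that of sorted cells, so whether the cells had been cultured remains unclear. As each genotype has 1 library, differences have no check against replicates, no p-value can be given, and genotype cannot be told apart from the preparation of a library.

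Fatty acids enter cells through carriers such as CD36 or are released at the vessel wall from circulating triglycerides by lipoprotein lipase, encoded by Lpl. In the cytosol they are carried by small fatty acid binding proteins, of which FABP4 is known from adipocytes, macrophages and capillary endothelial cells, and FABP5 from skin, macrophages and many dividing cells. Fatty acids also bind the nuclear receptors PPARα, PPARδ and PPARγ, which act as partners of RXR and switch on genes of fatty acid uptake, storage and oxidation; Fabp4 is a classical target of PPARγ. New fatty acids are made by fatty acid synthase (Fasn) and desaturated by the stearoyl-CoA desaturases Scd1 and Scd2. HSCs of the adult marrow are known to depend on fatty acid oxidation under the control of PPARδ.

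Fabp4 and Fabp5 encode related proteins, and a read that fits both genes could be credited to either, so their messages were compared first. The coding sequences (399 and 408 bases) were identical at 248 of 399 aligned bases, or 62.2%. The stretches that hold their longest identical run, set in capitals, are printed here because the separation of these genes by 75-base reads rests on them. They are written in the sense direction from GENCODE M21 transcripts (GRCm38, which is mm10) and span coding positions 36 to 185 of Fabp4 and 42 to 191 of Fabp5.
Fabp4: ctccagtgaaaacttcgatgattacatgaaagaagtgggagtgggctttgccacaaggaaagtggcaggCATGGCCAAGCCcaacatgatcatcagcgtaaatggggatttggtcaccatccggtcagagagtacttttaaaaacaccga
Fabp5: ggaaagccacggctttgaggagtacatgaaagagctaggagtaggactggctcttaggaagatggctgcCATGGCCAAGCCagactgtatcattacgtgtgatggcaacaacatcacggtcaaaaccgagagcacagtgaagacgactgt
The run was 12 bases long, also over the whole transcripts, against reads of 75 bases. No 75-base window of the Fabp4 transcript (0 of 822) occurred in a transcript of another gene. For Fabp5, 110 of 913 windows (12.0%) also occurred in transcripts of the predicted genes Gm14328 or Gm6166, and how the authors credited reads that fit several places is not given in the labels or text read here.

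Levels are in FPKM, a count of sequenced fragments divided by the length of the transcript and by the size of the library, which allows genes to be compared per length. In WT 14305 genes had a value above 0, in ESAM-null 13039. The files hold no read counts, but low values fall on steps of whole reads, which give totals of about 10148608 reads (WT) and 12403826 reads (ESAM-null) on the authors' normalized scale. The steps were within 0.05 of a whole read for 70.9% of 475 low genes in WT and 74.4% of 316 in ESAM-null, so reads per gene are approximate. Intervals printed beside ratios are 95% exact (Clopper-Pearson) intervals from these reads. They cover counting error only and leave out the spread between fetuses and between library preparations. PCR copies are not separate molecules, so even the counting error may be larger than the intervals show. Esam, the deleted gene, had 117.6 FPKM in WT against 12.1 in ESAM-null, 9.69-fold lower (8.37 to 11.2). Of 12 stem cell markers, 11 were within 2-fold between the libraries, among them Kit (94.4 and 76.4 FPKM) and Ly6a, which encodes Sca-1 (99.8 and 96.7 FPKM). Thy1, the other marker, had 0.208 and 1.02 FPKM (about 3 and 16 reads). Of all 12066 genes with at least 1 FPKM in 1 or both libraries, 9631 were within 2-fold. The cells were sorted on c-Kit and Sca-1, so the levels of Kit and Ly6a do not show that the libraries held alike cells. None of 130 genes that every cell uses (ribosomal, proteasome, RNA polymerase II, eIF3 and CCT genes) was listed at 0 in either library. This does not show that other genes listed at 0 were absent from the cells.

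Of the 10 genes, 6 were above 0 in both libraries and Cd36, Pparg, Ppara and Scd1 were listed at 0 in both. Fabp4, Fabp5 and Lpl were higher in ESAM-null by 2-fold or more, whereas Ppard, Scd2 and Fasn were within 2-fold. In a bulk library, fewer cells of a type and less RNA per cell cannot be told apart. Of the 5 that reached 1 FPKM in 1 or both libraries, 3 were at least 2-fold higher and 0 at least 2-fold lower. Across all 12066 genes at that level, 895 (7.42%) were at least 2-fold higher and 1540 (12.8%) at least 2-fold lower. The genes were selected on these ratios, so nothing is read from the count. The median log2 ratio of the 5 genes was 1.03, which is the value of Fabp5, beside 0.01 over the 11663 of the 12066 genes that were above 0 in both libraries. When both libraries were rescaled to a total of 1000000 FPKM, the median of all genes shifted to -0.27 and the share of lower genes among those past 2-fold went from 63.2% to 77.1%.

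**Figure D1:**
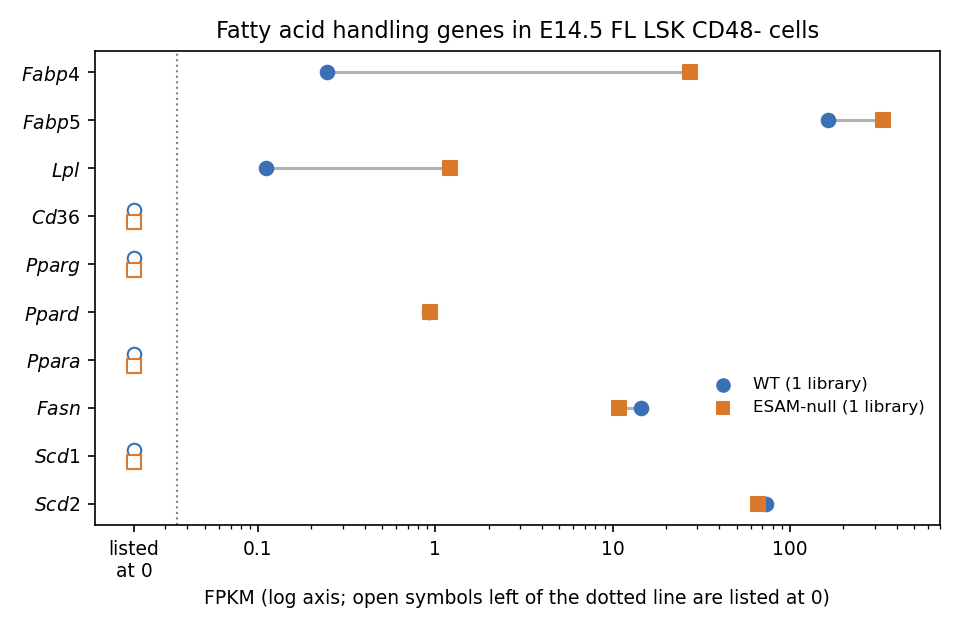
FPKM (log axis) of the 10 fatty acid handling genes in the WT library (circles) and the ESAM-null library (squares), with a grey line joining the values of a gene and open symbols for genes listed at 0. Fabp4 spans 0.245 to 27.5 FPKM and Lpl 0.1104 to 1.22 FPKM, while the symbols of Ppard, Scd2 and Fasn lie close together.

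Among the fatty acid binding proteins, Fabp4 (chr3:10204088-10208576, minus strand) was listed at 0.245 FPKM in WT against 27.5 in ESAM-null. It was thus close to undetected in WT and of moderate level in ESAM-null, above 43.8% of all genes in the first library and above 83.3% in the second. The ratio was 112, or 6.81 on the log2 scale, which ranked 4th among the 11663 genes above 0 in both libraries that reached 1 FPKM in 1 or both, and 2nd among the 6633 of these with at least 10 FPKM in ESAM-null. The size of the ratio rests on very few WT reads. With a transcript of 896 bases the WT value corresponds to 1.59 reads and the ESAM-null value to 194, and rounding to 2 reads gave an interval from 24.3 to 741. If the WT value was 1 read, ESAM-null had 122 reads and the interval was 19.7 to 4463. With 2 whole reads, ESAM-null had 244 reads and the interval was 30.7 to 931. In each reading the WT level was under that of 3 reads (0.461 FPKM), so the ESAM-null level of 27.5 FPKM is far better determined than the fold.

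Fabp5 (chr3:10012548-10016607, plus strand) had 164.0 FPKM in WT against 334.5 in ESAM-null. It was abundant in both libraries, above 96.8% and 98.1% of all genes. The ratio was 2.04 (1.90 to 2.18), from about 1206 and 2677 reads, so the counting interval reaches to both sides of 2-fold. Among the 1465 genes that reached 100 FPKM in the higher library, 26 (1.77%) were at least 2-fold higher in ESAM-null. Of the pair, Fabp5 was the more abundant in both libraries. Fabp4 made up 0.149% of the summed Fabp4 and Fabp5 level in WT and 7.59% in ESAM-null, and the sum went from 164.2 to 361.9 FPKM, 2.204-fold. In absolute level the difference between libraries was 170.5 FPKM for Fabp5 and 27.2 FPKM for Fabp4.

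Fabp4 and Fabp5 belong to a group of lipid binding protein genes that spans 288.6 kb of chromosome 3. The other genes of the group were not detected. Pmp2, which encodes a myelin protein, Fabp9, a testis gene, and Fabp12 were listed at 0 in both libraries. The levels that 3 reads would give were 0.266 FPKM in WT against 0.244 in ESAM-null for Pmp2, 0.839 and 0.771 FPKM for Fabp9, and 0.139 and 0.128 FPKM for Fabp12.

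**Figure D2:**
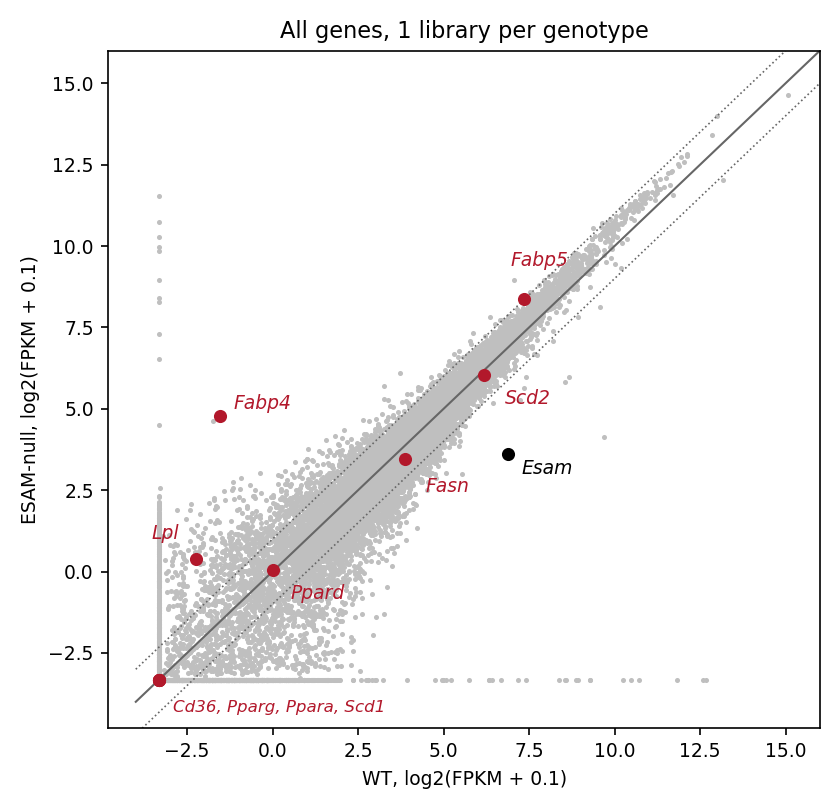
Each grey point is a gene, placed by log2(FPKM + 0.1) in the WT library (x axis) and the ESAM-null library (y axis), with the fatty acid handling genes in red, Esam in black, equality as the solid line and 2-fold as the dotted lines. Fabp4, with 0.245 and 27.5 FPKM, lies well above the dotted line with only Cited4 beside it, Fabp5 lies on the line, and Scd2, Fasn and Ppard lie between the lines.

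The gene whose pair of levels was most like that of Fabp4 was Cited4, a transcriptional coactivator gene, at a distance of 0.249 on the log2(FPKM + 0.1) scale over the 2 libraries. Cited4 had 0.202 FPKM in WT against 24.6 in ESAM-null, from about 2 and 262 reads. The next genes were far less alike. Olfr632, Jrkl, Sult5a1 and Zfp37 lay at distances of 2.01 to 2.24, with 0.346 to 0.668 FPKM in WT and 5.87 to 8.09 FPKM in ESAM-null. Likeness over 2 libraries only says that the levels were similar.

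Of the genes for uptake from outside the cell, Lpl (chr8:68880491-68907448, plus strand) had 0.1104 FPKM in WT against 1.22 in ESAM-null. Both levels were low, and the ESAM-null value was just above 1 FPKM. The ratio was 11.0 (4.04 to 42.1), or 3.46 on the log2 scale, from about 4 and 48 reads. Lpl ranked 68th of the 11663 genes by ratio. Of 1869 genes with 1 to 3 FPKM in the higher library, 393 (21.0%) were at least 2-fold higher in ESAM-null, compared with 131 of 3316 (3.95%) at 10 to 30 FPKM. Adding 1 FPKM to each library brought the log2 ratio of Lpl to 0.998, just under 2-fold. Of 4007 windows of its transcript, 69 (1.7%) also occurred in transcripts of 43 other genes. Cd36 (chr5:17781690-17888801), the fatty acid translocase of adipocytes, muscle and capillaries, was listed at 0 in both libraries, where 3 reads would have given 0.1003 FPKM in WT against 0.0922 in ESAM-null. Gpihbp1, which holds lipoprotein lipase at the capillary wall, was listed at 0 in WT and at 0.662 FPKM (about 4 reads) in ESAM-null.

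Among the 3 PPAR genes, only Ppard (chr17:28232700-28301474) was above 0, with 0.915 FPKM in WT against 0.939 in ESAM-null. These low levels were close to equal, with a ratio of 1.03 and an interval of 0.583 to 1.81 from about 26 and 29 reads. Differences within that interval were not detectable at this depth. Pparg (chr6:115360951-115490399), the receptor of fat cell differentiation, was listed at 0 in both libraries, where 3 reads would have given 0.167 and 0.153 FPKM. Ppara (chr15:85734983-85802819), the receptor of liver and muscle, was also listed at 0 in both, with corresponding levels of 0.0999 and 0.0918 FPKM. No 75-base window of the 3 receptor transcripts occurred in another gene.

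Of Fasn, Scd2 and Scd1, the first 2 were slightly lower in ESAM-null and Scd1 was not detected. Fasn (chr11:120805846-120824547) had 14.497 FPKM in WT against 10.9 in ESAM-null, 1.34-fold lower (1.23 to 1.45). Scd2 (chr19:44293674-44306864), the desaturase of brain and of fetal tissues, had 73.0 and 65.9 FPKM, 1.11-fold lower (1.06 to 1.16). Their intervals exclude equality by counting alone, but without replicates it is unknown whether sizes like these exceed the spread between libraries. Scd1 (chr19:44394455-44407879), the main desaturase of adult liver and fat, was listed at 0 in both libraries, where 3 reads would have given 0.0693 and 0.0637 FPKM. Scd2 thus accounted for the whole desaturase level of this pair. Scd1 and Scd2 shared few read-length windows: 97 of 5381 windows of Scd2 (1.8%) occurred in Scd1, Scd3 or Scd4, and 154 of 4758 windows of Scd1 (3.2%) in 4 other genes.

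**Figure D3:**
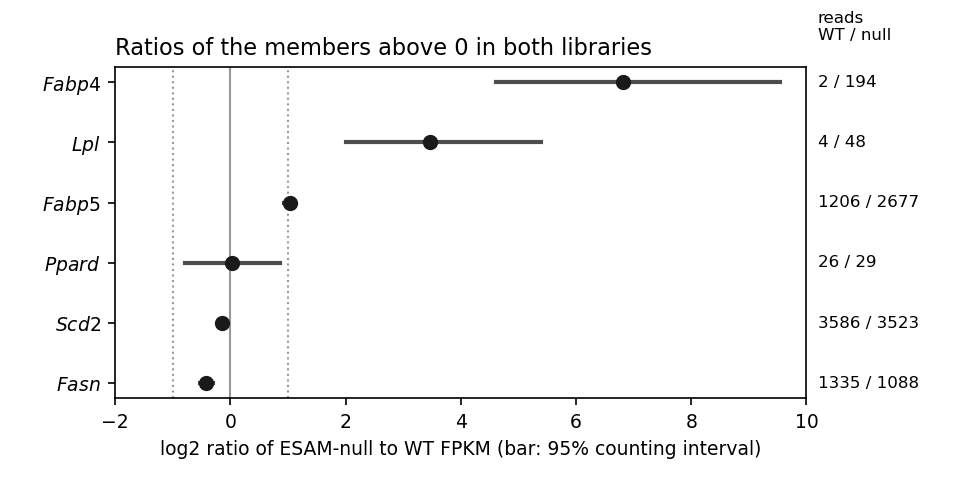
Log2 of the ratio between ESAM-null and WT FPKM for the 6 fatty acid handling genes above 0 in both libraries, with 95% counting intervals as bars and the approximate reads of each library at the right. The bar of Fabp4 is the widest because WT had about 2 reads, while Fasn, with 1335 and 1088 reads, and Scd2, with 3586 and 3523, have bars about as short as the symbols.

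The rest of the pathway was followed in 9 gene lists that leave out the 10 genes, counting members with at least 1 FPKM in 1 or both libraries. Across all genes at that level, 7.42% were at least 2-fold higher and 12.8% at least 2-fold lower. Of 14 other lipid binding proteins, 10 were listed at 0 in both libraries and 3 reached that level, with 0 past 2-fold in either direction. Dbi, the acyl-CoA binding protein, had 345.3 and 596.0 FPKM and was higher in ESAM-null (1.73-fold, 1.61 to 1.85). Rbp2 had 7.08 and 8.40 FPKM (1.19-fold, 0.723 to 1.96), a direction that turned once totals were rescaled. No other gene of this list had a ratio like that of Fabp4, but Fabp4 was chosen for its ratio, so nothing is read from this. Of 13 genes of uptake and activation, 2 were higher and 1 lower (3 lower with totals rescaled), with a median log2 ratio of -0.05. Slc27a2 went from 0.608 to 2.28 FPKM and Slc27a3 from 1.24 to 3.51 FPKM, whereas Slc27a4, another fatty acid transport protein gene, had 6.11 FPKM in WT against 2.41 in ESAM-null, 2.53-fold lower (1.97 to 3.24).

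The partners and coregulators of the PPARs were on the lower side in ESAM-null. Of 15 genes, 0 were higher and 4 lower (26.7%, against 12.8% of all genes), and the median log2 ratio was -0.39 with 2 of 15 ratios above 1. Rxra, which encodes the RXR partner, had 3.31 FPKM in WT against 0.828 in ESAM-null (3.997-fold lower, 2.78 to 5.79). The coactivator gene Ncoa1 had 2.22 and 0.315 FPKM (7.05-fold lower, 4.49 to 11.4), and Ncoa3 had 5.86 and 2.81 FPKM. Rxrb, the more abundant RXR gene, had 54.5 and 31.4 FPKM, 1.74-fold lower (1.58 to 1.90). Nrip1, a corepressor of fat metabolism genes, had 28.5 and 13.01 FPKM, 2.19-fold lower (2.03 to 2.37). Of 11 adipogenic transcription factors, 0 passed 2-fold in either direction (2 lower with totals rescaled), and their median was -0.34. Among them, Cebpb, which acts early in fat cell differentiation and in myeloid cells, had 164.9 and 104.5 FPKM, 1.58-fold lower (1.47 to 1.69). Stat5a was 1.85-fold, Nr3c1, the glucocorticoid receptor gene, 1.71-fold and Klf5 1.36-fold lower.

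The known PPAR target genes showed no common direction. Of 28 genes, 3 were higher (10.7%) and 2 lower (7.14%), and the median over the 27 above 0 in both libraries was 0.07. With totals rescaled, 3 were higher and 5 lower, and the median was -0.21. Ehhadh, a peroxisomal enzyme, went from 1.097 to 5.67 FPKM (5.17-fold, 3.397 to 7.81) and Nr1h3, which encodes the oxysterol receptor LXRα, from 1.53 to 3.97 FPKM (2.59-fold, 1.63 to 4.30). Creb3l3 went from 0.153 to 1.36 FPKM on about 3 and 29 reads. Cyp27a1, a sterol hydroxylase, had 33.3 FPKM in WT against 8.11 in ESAM-null, 4.10-fold lower (3.39 to 4.96), and Vnn1 had 1.44 FPKM in WT and was listed at 0 in ESAM-null. No other gene of the list had a ratio above the 8.89 of Creb3l3.

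Of 29 genes of fatty acid synthesis and desaturation, 2 were higher and 1 lower, with a median of 0.03. With totals rescaled, 1 was higher and 2 were lower, and the median was -0.25. The elongase gene Elovl7 went from 2.01 to 4.08 FPKM (2.03-fold, 1.52 to 2.70) and Ptpla, a dehydratase gene of elongation, from 52.6 to 103.2 FPKM (1.96-fold, 1.74 to 2.22), while Fads3 was 2.82-fold lower (2.12 to 3.85). Of 21 genes of triglycerides and lipid droplets, 1 was higher and 1 lower, and 7 of 21 ratios were above 1 (median -0.25). With totals rescaled, 1 was higher and 5 were lower. The lipase genes Pnpla2, from 48.2 to 26.1 FPKM (1.84-fold, 1.67 to 2.03), and Lipe, from 6.72 to 3.64 FPKM (1.85-fold, 1.48 to 2.32), were lower but within 2-fold. Abhd5 of the same list went the other way, from 4.29 to 6.59 FPKM (1.54-fold, 1.21 to 1.94). Mgll, which cleaves the last fatty acid, went from 0.741 to 2.21 FPKM, and Fitm2, needed for droplet formation, from 6.57 to 1.15 FPKM.

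Mitochondrial fatty acid oxidation had the highest median of the 9 lists. Of 28 genes, 2 were higher (7.14%, against 7.42% of all genes) and 0 lower. Of the 28 ratios, 20 (71.4%) were above 1 compared with 50.6% of all genes, and the median was 0.37. This comparison was not matched for level, and the FPKM total was higher in ESAM-null (911735.7) than in WT (751784.0). With totals rescaled, 1 gene of the list was higher and 3 were lower, and the median was 0.09. Cpt1a, which encodes the rate-limiting carnitine acyltransferase, went from 4.32 to 8.19 FPKM (1.89-fold, 1.57 to 2.30) and Cpt2, its partner at the inner membrane, from 12.6 to 25.0 FPKM (1.98-fold, 1.71 to 2.31). Cpt1c went from 0.492 to 3.13 FPKM and Acad10 from 2.02 to 4.62 FPKM. Of 19 peroxisomal genes, 2 were higher and 3 lower (median -0.17): beside Ehhadh and Slc27a2 on the higher side, Abcd4 was 3.28-fold and the thioesterase gene Acot8 2.33-fold lower, and Acot4 went from 3.504 to 1.52 FPKM.

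**Figure D4:**
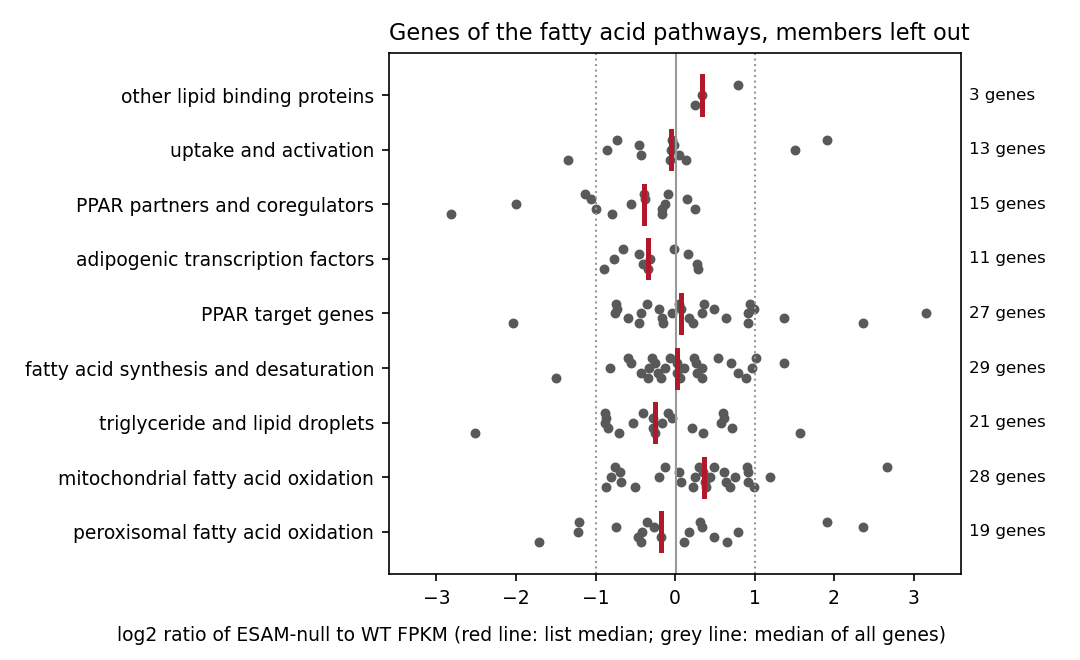
Log2 of the ratio between ESAM-null and WT FPKM for members of the 9 pathway lists with at least 1 FPKM in 1 or both libraries and above 0 in both, with the list median as a red bar, 2-fold as dotted lines and the median of all genes as the grey line. The medians lie between -0.39 for PPAR partners and coregulators and 0.37 for mitochondrial fatty acid oxidation, and most genes of every list lie within 2-fold.

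Because Fabp4 and Lpl are also made by cells other than HSCs, the markers of such cells were compared between the libraries. Of 10 adipocyte markers, 6 were listed at 0 in both libraries, among them the defining genes Adipoq, Lep and Plin1 as well as Cidec, Adrb3 and Thrsp, and the summed level was 7.34 FPKM in WT against 4.42 in ESAM-null, most of it from Lipe. Retn, which encodes the adipocyte hormone resistin, was listed at 0 in WT and at 0.782 FPKM (about 7 reads) in ESAM-null. Of 16 macrophage markers, 8 reached 1 FPKM. Of these, 0 were at least 2-fold higher in ESAM-null and 3 (37.5%) lower (C1qa, Marco and Cd5l), against 7.42% and 12.8% of all genes. The other 5 were above 0 in both libraries, and 3 of their ratios were above 1 (median log2 ratio 0.49). These 3 were Csf1r (1.65-fold, 1.24 to 2.24), Cd68 (1.41-fold, 1.13 to 1.77) and C1qc (1.498-fold, 0.943 to 2.397). C1qb was 1.98-fold lower (1.05 to 3.66) and Lyz2 was close to equal. Below 1 FPKM, Emr1, Vcam1 and Clec4f were listed at 0 in ESAM-null only and Mrc1 had 0.332 and 0.0191 FPKM. Vsig4, Timd4, Cd163 and Siglec1 were listed at 0 in both. The summed macrophage level was 365.3 and 364.2 FPKM, of which Lyz2, a gene of many myeloid cells, gave 334.6 and 333.6 FPKM.

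Endothelial markers went in both directions. Of 16, 11 reached 1 FPKM. Of these, 3 (27.3%, against 7.42% of all genes) were at least 2-fold higher in ESAM-null and 0 lower (12.8% of all genes). The 3 were Cdh5 (0.954 and 3.33 FPKM), Stab1 (0.626 and 1.36 FPKM) and Flt4 (0 and 1.16 FPKM). Among all genes with 1 to 3 FPKM in the higher library, 21.0% were at least 2-fold higher. Below 1 FPKM, Stab2 was higher (0.0401 and 0.492 FPKM, about 3 and 40 reads), whereas Flt1 (0.995 and 0.0963 FPKM, about 62 and 7 reads) and Lyve1 (0.884 FPKM and listed at 0) were lower. The summed level was 98.2 FPKM in WT against 114.6 in ESAM-null, led by Emcn (43.2 and 60.0 FPKM), Pecam1 (20.8 and 12.1 FPKM) and Tek (10.9 and 16.3 FPKM), which HSCs also express. Their part in the level of Fabp4 and Lpl was not tested. Stromal markers summed to 2.60 and 1.42 FPKM, with Acta2 and Lrat at 0 in both, and mast cell and basophil markers to 2.96 and 5.97 FPKM, with 7 of 11 at 0 in both and Cpa3 higher in ESAM-null. Hepatocyte markers summed to 80.7 and 73.7 FPKM, mostly from Dlk1 and Trf. Of the hepatocyte list, 5 markers were above 0 in both libraries, and 3 of their ratios were above 1. Apoa1 (6.9-fold, 3.23 to 14.9) and Afp (1.54-fold, 1.15 to 2.07) were among these 3. Alb, Apoa2, Serpina1b and 4 others had a value above 0 only in the WT library, from about 1 to 18 reads each. Over all genes, more were at 0 only in ESAM-null (1664) than only in WT (398). Of the blood lineage markers with at least 1 FPKM, 2 of 10 megakaryocyte genes, 1 of 8 granulocyte and monocyte genes and 3 of 12 erythroid genes were at least 2-fold higher, and 2, 1 and 2 at least 2-fold lower. Their summed levels were 269.4 and 246.1 FPKM for megakaryocytes, 295.8 and 297.5 FPKM for granulocytes and monocytes, 630.7 and 720.5 FPKM for erythroid cells and 978.0 and 950.2 FPKM for stem cells. In the granulocyte and monocyte list, Elane and Ctsg were listed at 0 in both libraries. Mpo (63.9 and 62.8 FPKM) and Prtn3 (186.0 and 193.4 FPKM) of that list were abundant in both.

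**Figure D5:**
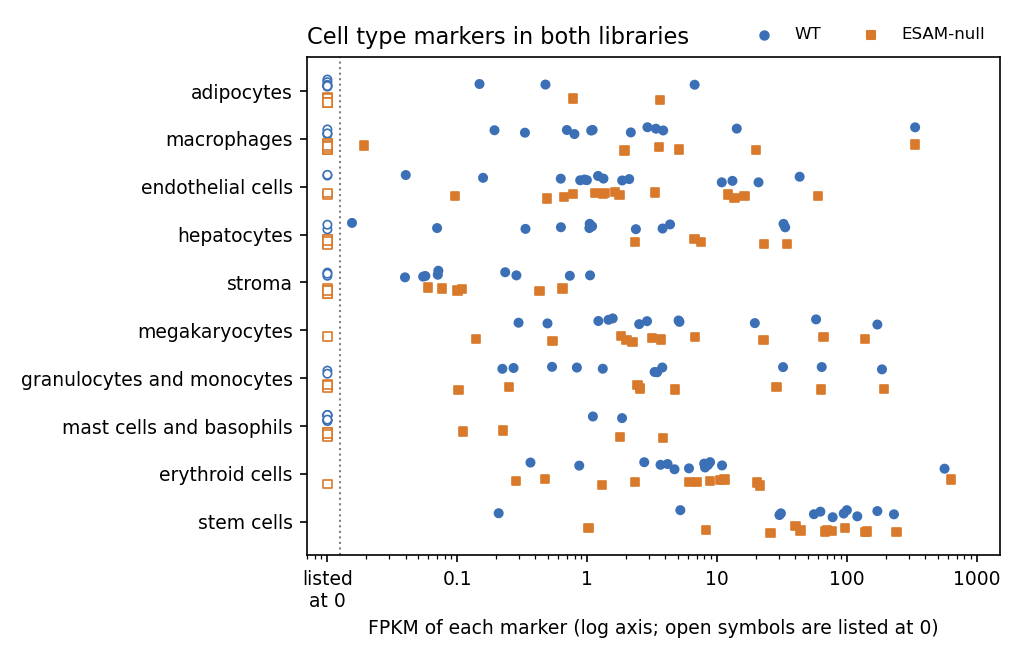
FPKM (log axis) of each marker of 10 cell type lists in the WT library (circles) and the ESAM-null library (squares), with open symbols for markers listed at 0. Adipocyte markers are mostly listed at 0 in both libraries, and 11 of 12 stem cell markers, all but Thy1, lie within 2-fold between the libraries.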

How the data were processed

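RNA-seq was performed on 1 WT and 1 ESAM-null library. The authors deposited FPKM per gene symbol, made from 75 bp single-end reads of sheared (200 to 500 bp) SMART-Seq cDNA. The notes of the submitters list Cuffnorm 2.2.1, TopHat2 2.0.13, SAMtools 0.1.19 and Bowtie2 2.2.3, with mm10 as the build. The annotation, the strand setting and the handling of reads with several matches are not given in the labels or text read here.

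The ESAM-null value was divided by the WT value for each gene, and genes with at least 1 FPKM in 1 or both libraries were counted at 2-fold or more. The 10 genes, the 9 pathway lists and the 10 marker lists were chosen with earlier results of these data known. All 10 genes and Esam were named, with up to 4 genes per pathway list by the size of their log2 ratio, the 5 genes nearest to Fabp4 (transcripts over 200 bases), its neighbours of the same family, and up to 3 markers per list by level with those at 0 in both. Other genes named, among them Kit, Ly6a, Gpihbp1, Vnn1, Acot4, Rxrb and further markers, were added after their values were seen. Some genes are not reported here. Reads per gene were estimated from FPKM, the value of 1 read and transcript lengths (GENCODE M21, GRCm38; found for 98.0% of genes), assuming fragments of 200 ± 80 bp (SD). The steps were tested on simulated data. Alternatives were other filters, added constants, thresholds and scalings, and leaving out each gene. Scripts used Biopython 1.88, matplotlib 3.10.9, scipy 1.17.1, pandas 2.3.3, numpy 2.4.6 and Python 3.11.15.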

Additional observations from a re-analysis of the deposited data

How the results depend on the processing

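Adding a constant to both libraries cannot turn a direction. The scalings shifted log2 ratios by -0.28 to 0.01, so they could turn only ratios close to 1. Ppard turned from 0.036 to -0.24 with a total of 1000000 FPKM, while Fabp4, Fabp5, Lpl, Scd2 and Fasn kept their direction. Log2 ratios ranged from 4.51 to 6.82 for Fabp4, 0.75 to 1.04 for Fabp5 and 0.998 to 3.47 for Lpl. They ranged from -0.43 to -0.14 for Scd2, -0.70 to -0.39 for Fasn and -0.24 to 0.04 for Ppard. Of the 3 genes at least 2-fold higher, Lpl was lost with 1 FPKM added, Fabp5 with a total of 1000000 FPKM (0.75) or a 3-fold threshold, and both Fabp4 and Lpl when 1 FPKM was required in both libraries, which left 1 gene higher. That filter keeps 3 of the 10 genes, and their median log2 ratio was -0.15. The median of 1.03 was 0.53 with no filter or one of 0.1 FPKM, which add Ppard, 0.44 with 5 FPKM, which drops Lpl, 0.75 with a total of 1000000, and 0.44 to 2.25 when each gene was left out in turn. Across all genes, 895 higher and 1540 lower became 1343 and 3264 with no filter, 343 and 639 with 5 FPKM, 437 and 761 with 1 FPKM in both, 2095 and 2632 at 1.5-fold, and 490 and 877 at 3-fold. There were 2868 lower genes with 0.1 FPKM and 568 higher genes with 1 FPKM added. With a total of 1000000 the medians of the PPAR target genes (-0.21) and of fatty acid synthesis (-0.25) turned negative. No paired analysis was possible because each genotype has 1 library. Depth limits the fold of Fabp4 and Lpl, whose WT levels rest on about 2 and 4 reads, and the genes listed at 0, where levels under 3 reads could not be seen.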
